A study of Mus musculus with 43 samples.

Results

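The 6 genes described here encode carriers that move organic anions and thyroid hormone across membranes: Slco1a4, Slco1c1, Slco2b1, Slco2a1 and Slco3a1 of the organic anion transporting polypeptide (Slco) family, and Slc22a8 of the organic anion transporter (Slc22a) family. They were taken by symbol from a table of 54532 genes, and each symbol was found once. The table holds read counts of 43 RNA-seq libraries from brain endothelial cells (EC), sorted as CD45-, CD11b-, CD31+ cells from the cortex (21 libraries) or hippocampus (22 libraries) of 2-month-old mice that were given no treatment. The 7 inbred strains were 129S1/SvImJ (9 libraries, 6 female and 3 male), A/J (5), C57BL/6J (6), DBA/2J (5), NOD/ShiLtJ (6) and the wild-derived CAST/EiJ (6) and WSB/EiJ (6). There were 16 female and 27 male libraries. Each library title also carries the word high or low, whose meaning no source used here gives. High stood in 15 titles from females (n = 16) and in 14 titles from males (n = 27). Mice are not identified in the labels, all libraries entered the tests as separate samples, and the p-values measure the spread between libraries, which may be technical.

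The totals ran from 1626534 to 49372356 counts per library, with a median of 5790701. Sex went together with depth and RNA composition. Counts on 3 ribosomal RNA-like genes made up 1.59% to 12.1% of the female libraries and 13.0% to 29.3% of the male libraries. The 20 endothelial markers summed to between 11815 and 24086 CPM (counts scaled to a common library total, with TMM scaling between libraries). The gate did not leave EC transcripts alone. The 10 astrocyte markers summed to between 1099 and 19671 CPM and the 10 pericyte markers to between 1953 and 9552 CPM, while the 10 microglial markers stayed between 0.555 and 152 CPM. In sorted bulk samples such as these, fewer cells of a type and less RNA per cell cannot be told apart.

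Solutes that carry a negative charge cross the blood-brain barrier poorly by diffusion, and brain EC move them with carriers of the Slco and Slc22a families, which exchange organic anions, working beside ATP-driven pumps. Thyroxine, the main circulating form of thyroid hormone, enters the rodent brain with the help of Slco1c1, and is converted inside the brain by the deiodinase Dio2 to the form that binds the nuclear receptor Thra. Slco1a4 takes up bile salts, steroid conjugates and several drugs. Slco2b1 carries steroid sulfates and drugs, Slc22a8 exchanges organic anions for dicarboxylates, Slco2a1 is the prostaglandin transporter, and Slco3a1 has been described as a carrier of prostaglandins and thyroxine.

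Both of the most abundant members lie on chromosome 6, and their promoters are shown here as the reference sequence. A single reference sequence holds no difference between strains, so it does not bear on the balance between these 2 genes by strain, described further on. In mm10, Slco1c1 (ENSMUSG00000030235) spans chr6:141524368-141570177 on the plus strand and Slco1a4 (ENSMUSG00000030237) spans chr6:141805440-141856199 on the minus strand. The 2 genes are 235262 bases apart, with 3 annotated genes between them, of which 2 are protein-coding, Slco1b2 and Gm5724. The lines below give the 250 bases before each RefSeq start in GRCm38.p6, read 5′ to 3′ in the direction of the gene, from chr6:141524104-141524353 (plus strand) for Slco1c1 and from chr6:141856221-141856470 (minus strand) for Slco1a4. The capitals mark the longest run of bases that the pair shares in the same direction.
Slco1c1: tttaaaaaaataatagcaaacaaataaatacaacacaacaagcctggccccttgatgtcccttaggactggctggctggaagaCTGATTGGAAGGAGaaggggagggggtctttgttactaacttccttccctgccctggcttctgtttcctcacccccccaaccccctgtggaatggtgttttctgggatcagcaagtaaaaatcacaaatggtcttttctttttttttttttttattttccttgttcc
Slco1a4: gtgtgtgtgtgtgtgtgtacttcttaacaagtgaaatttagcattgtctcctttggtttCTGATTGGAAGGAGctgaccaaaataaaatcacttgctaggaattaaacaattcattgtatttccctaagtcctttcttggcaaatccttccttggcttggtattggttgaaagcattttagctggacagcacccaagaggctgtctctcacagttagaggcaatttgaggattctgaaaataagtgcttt

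The shared run, CTGATTGGAAGGAG, is 14 bases long. It lay 167 to 154 bases before the start of Slco1c1 and 191 to 178 bases before that of Slco1a4. Of 32851 RefSeq mouse promoters of the same length, 2 held this run (0.00609%), those of Slco1c1 and Slco1a4. The run was taken from these 2 windows, so that both hold it was fixed in advance. The longest runs shared by other pairs of promoters were not compared. The share is therefore no measure of how unusual the match of this pair is. On opposite strands, the longest run shared by the pair was 9 bases. The letters ATTGG inside the 14-base run are the reverse complement of CCAAT, a motif present on either strand in 33.8% of all promoters. CCAAT or its complement was found once before Slco1c1 (164 bases before the start) and in 2 places before Slco1a4 (188 and 89 bases before the start). The letters TATAAA (12.4% of all promoters) and GGGCGG (32.7%) were found on neither strand of either window. Both windows were low in G and C, at 42.8% for Slco1c1 and 39.2% for Slco1a4, against a median of 52.4% over all promoters and quartiles of 45.2% and 61.2%. Neither held a CpG, where the median promoter held 6. These matches describe letters and do not show that a factor binds.

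Among the other members, 3 further genes had a promoter entry in the RefSeq table, so that 5 of the 6 members matched, with 7 entries in all. Slco2b1 (ENSMUSG00000030737, chr7:99657804-99711340, minus strand) had 3 annotated starts, and CCAAT or its complement was found before one of them, 155 bases upstream. Slco2a1 (ENSMUSG00000032548, chr9:102988712-103096002, plus strand) was the member with TATAAA, 29 bases before its RefSeq start, and with GGGCGG, 106 bases before it. The window before that start, chr9:103008237-103008486, lay inside the gene span given. No match to the 3 motifs was found before the RefSeq start of Slc22a8 (ENSMUSG00000063796, chr19:8591254-8611835, plus strand). Its window, chr19:8592932-8593181, also lay inside the gene span. Slco3a1 (ENSMUSG00000025790, chr7:74275419-74554780, minus strand) had no entry.

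The 6 transporters covered a wide range of levels. Per kilobase of exon, the mean level over the 43 libraries was 204.5 CPM for Slco1a4 and 176.4 CPM for Slco1c1, followed by 82.7 CPM for Slc22a8 and 37.0 CPM for Slco2b1. Slco3a1 (1.59 CPM per kilobase) and Slco2a1 (0.54 CPM per kilobase) were far lower. On the same scale, the efflux pump Abcc4 averaged 65.6 CPM, Thra 76.6 CPM, the efflux pump Abcg2 30.9 CPM and Dio2 10.3 CPM. The members thus spanned the range from genes above Abcc4, Thra, Abcg2 and Dio2 to genes at the edge of detection.

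As CPM, which are used from here on, Slco1a4 ran from 676 to 2215 over the 43 libraries with a median of 1311, and Slco1c1 from 455 to 1356 with a median of 861. Slc22a8 ran from 136 to 639 (median 315) and Slco2b1 from 86.1 to 410 (median 225). Each of these 4 genes had counts in every library. Slco3a1 ran from 0 to 37.0 CPM with a median of 11.6 and had 0 counts in 1 library. Slco2a1 ran from 0 to 31.8 CPM with a median of 4.44 and had 0 counts in 9 libraries, where a count of 0 allows a level of up to 0.104 to 1.84 CPM (3 counts, counting error only). Slco1a4 had 16 of 6402 read-length windows in common with Slco1a1 and Slco1a5, and no window of the other members was found in another gene. Slco2b1, Slco2a1 and Slco3a1 overlap annotated antisense genes or small RNA genes. The strand setting of the counting is not given in the sources used here, so reads of such partners cannot be told apart from those of the member.

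**Figure D1:**
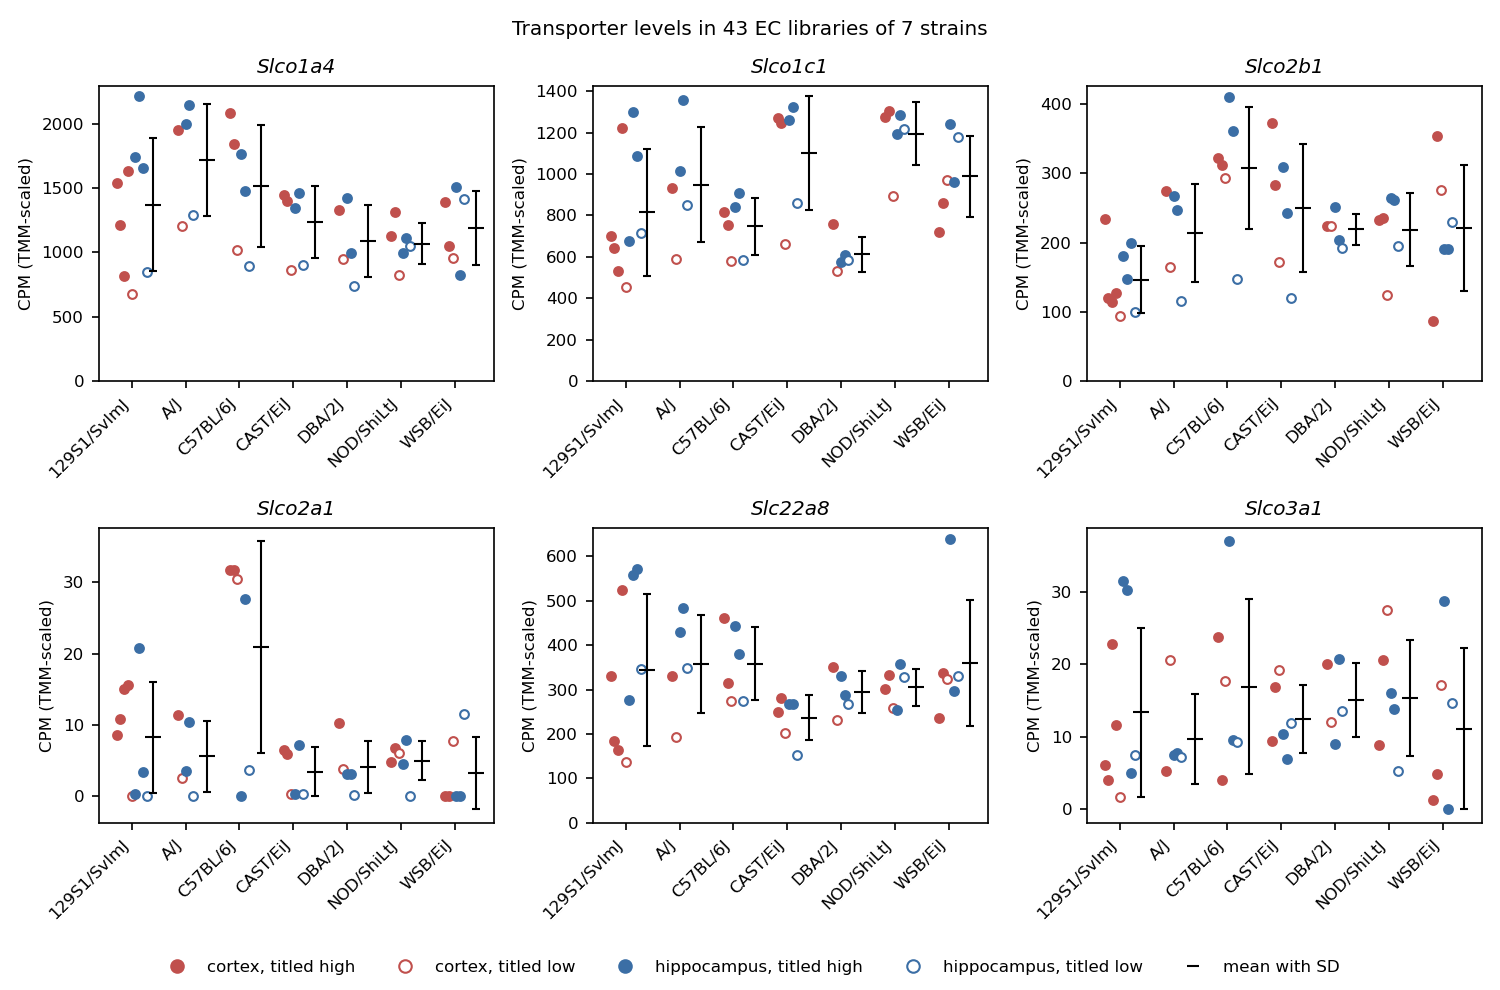
Level of each transporter (CPM after TMM scaling, linear axes) in 43 EC libraries, grouped by strain; points are libraries, red for cortex and blue for hippocampus, filled where the title says high and open where it says low, and the black bar is the strain mean with its SD. Slco1c1 in NOD/ShiLtJ, the strain with the highest mean, sits between 896 and 1304 CPM. It lies above all 5 libraries of DBA/2J, the strain with the lowest mean (530.0 to 757 CPM), while most other strains overlap.

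Slco1c1, the thyroxine carrier, was the member that differed among the 7 strains. In the 5 DBA/2J libraries its level was 757 and 530.0 CPM in the cortex and 609.7, 586 and 576 CPM in the hippocampus. In NOD/ShiLtJ the lowest library held 896 CPM, the median was 1246 CPM and the highest 1304 CPM, so that no NOD/ShiLtJ library overlapped the DBA/2J range. These strains were picked as the highest and lowest by these same values. How many genes show such a gap between their highest and lowest strain was not counted, so the gap is a description. The strain means, with SD, were 1195 ± 152 CPM in NOD/ShiLtJ (n = 6), 1104 ± 276 CPM in CAST/EiJ (n = 6), 989 ± 195 CPM in WSB/EiJ (n = 6), 948 ± 278 CPM in A/J (n = 5), 815 ± 308 CPM in 129S1/SvImJ (n = 9), 748 ± 137 CPM in C57BL/6J (n = 6) and 612 ± 86.1 CPM in DBA/2J (n = 5). The highest mean was 1.95-fold the lowest. The F test over strains, by edgeR's quasi-likelihood method with Benjamini-Hochberg adjustment over all genes tested, gave an adjusted p of 0.0139 for Slco1c1, in a comparison where 781 of 29120 genes passed (2.68%).

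The call did not hold in every subset. The adjusted p of Slco1c1 was 0.919 among cortex libraries alone, 0.271 among hippocampus libraries alone and 0.0699 among the libraries titled high, and it was 0.0478 among male libraries. In the fit without covariates, no single strain passed for this gene when set against the mean of the other 6. The deviations with the smallest p-values were in DBA/2J, lower by 0.64 ± 0.18 (log2, SE, adjusted p = 0.157), in NOD/ShiLtJ, higher by 0.49 ± 0.15 (adjusted p = 0.267), and in CAST/EiJ, higher by 0.35 ± 0.15 (adjusted p = 0.377). With sex, region and title word as covariates, Slco1c1 passed in DBA/2J (-0.64, adjusted p = 0.0204) and in NOD/ShiLtJ (0.50, adjusted p = 0.0328), and with edgeR's default quasi-likelihood setting it passed in DBA/2J, NOD/ShiLtJ and CAST/EiJ. In counts simulated from these libraries, the F test over strains and the test of 129S1/SvImJ made more false calls than the nominal rate, a limit on the calls of Slco1c1 and Slco2b1. Markers varied beside Slco1c1. The summed endothelial markers had a median of 16498 CPM in DBA/2J against 18398 CPM in the other strains, and 19357 CPM in NOD/ShiLtJ against 18003 CPM. In DBA/2J the venous markers had a median of 786 CPM against 1455 CPM (0 of 8 with a higher mean, 1 called lower), the capillary markers 10297 CPM against 12673 CPM (1 of 7 called lower) and the neuronal markers 652 CPM against 296 CPM. Astrocytes are also known to carry Slco1c1 in rodents, and the astrocyte markers had a median of 3406 CPM in DBA/2J against 3306 CPM, and 4006 CPM in NOD/ShiLtJ against 3239 CPM. The pericyte markers had a median of 6152 CPM in NOD/ShiLtJ against 3833 CPM (9 of 10 with a higher mean, 1 called higher). The choroid plexus markers had a median sum of 17.6 CPM in NOD/ShiLtJ against 5.38 CPM (10 of 10 with a higher mean, 1 called higher). In DBA/2J that sum was 59.2 CPM against 7.32 CPM (8 of 10 with a higher mean, none called). The part of these markers in the strain difference was not tested on its own. In the F test over strains with the astrocyte, pericyte and neuron marker levels as covariates, the adjusted p of Slco1c1 was 0.000622.

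Slco2b1, a carrier of steroid sulfates, was low in 129S1/SvImJ. The 9 libraries of that strain ran from 94.1 to 234 CPM with a median of 126 CPM, while C57BL/6J ran from 148 to 410 CPM with a median of 317 CPM. The 129S1/SvImJ library with the highest value, a female cortex library, lay within the range of each of the other strains, so the strains overlapped. The mean was 146 ± 48.5 CPM (SD, n = 9) in 129S1/SvImJ and lay between 214 and 308 CPM in the other 6 strains. The level in 129S1/SvImJ was lower than the mean of the other strains by 0.69 ± 0.19 (log2, SE), a change that passed the edgeR test at an adjusted p of 0.0380, where 426 of 29120 genes passed for that strain (1.46%). The F test over all 7 strains did not call Slco2b1 (adjusted p = 0.134), but it did with sex, region and title word as covariates (adjusted p = 0.0287), with DESeq2 (0.0446), with counts drawn down to the lowest total (0.0390) and with edgeR's default setting (0.0106).

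This call stood close to the threshold. Leaving out 1 of the 9 129S1/SvImJ libraries at a time gave adjusted p-values from 0.0218 to 0.0758, above the threshold for 6 of them, with log2 differences between -0.79 and -0.63. Among the male libraries the difference was -0.64 with an adjusted p of 0.215, among cortex libraries -0.81 (0.172) and among hippocampus libraries -0.56 (0.385). The ribosomal RNA-like share, which had a median of 2.59% in 129S1/SvImJ and of 14.2% over all libraries, took the adjusted p to 0.0965 when added as a covariate, with a difference of -0.73. The endothelial marker sum had a median of 16783 CPM in 129S1/SvImJ against 18384 CPM in the others, and the capillary marker sum 8283 CPM against 12511 CPM, with 1 of the 7 capillary markers lower at the same threshold. Pericyte markers had a median of 3534 CPM in 129S1/SvImJ against 4896 CPM. With astrocyte, pericyte and neuron markers as covariates the difference was -0.69 with an adjusted p of 0.119.

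Slco1a4, the most abundant member, had its highest mean in A/J and its lowest in NOD/ShiLtJ. In A/J it stood at 1952 and 1205 CPM in the cortex and at 2145, 2001 and 1289 CPM in the hippocampus, a mean of 1718 ± 437 CPM (SD, n = 5). In NOD/ShiLtJ it ran from 825 to 1311 CPM with a mean of 1068 ± 161 CPM (SD, n = 6). The ranges overlapped, and the F test over strains gave an adjusted p of 0.327, which was 0.0257 with scaling to endothelial markers and 0.000398 with edgeR's default setting. A/J against the mean of the other strains was higher by 0.48 ± 0.17 (log2, SE), with an adjusted p of 0.247, where 0.254% of genes passed, and with edgeR's default setting it passed (adjusted p = 0.000880).

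Slc22a8, an exchanger of organic anions, had strain means between 237 CPM in CAST/EiJ and 360 CPM in WSB/EiJ, with an adjusted p over strains of 0.809, which was 0.0301 with scaling to endothelial markers. CAST/EiJ lay below the mean of the other strains by 0.50 ± 0.21 (log2, SE, adjusted p = 0.356), where 1.35% of genes passed. This difference passed with scaling to endothelial markers (-0.70, adjusted p = 0.0375) and with astrocyte, pericyte and neuron markers as covariates (-0.62, adjusted p = 0.0383). The 129S1/SvImJ libraries spread the most, from 136 to 572 CPM.

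The prostaglandin transporter Slco2a1 was low in most strains and highest in C57BL/6J. In the C57BL/6J cortex the 3 libraries held 30.5, 31.8 and 31.8 CPM, from 144, 135 and 242 counts. In the C57BL/6J hippocampus the 3 libraries held 27.7, 3.60 and 0 CPM, from 154, 14 and 0 counts. The highest value in any other strain was 20.7 CPM, in a 129S1/SvImJ library. All 3 cortex libraries and 1 hippocampus library of C57BL/6J thus exceeded every library of the other strains, while the remaining C57BL/6J libraries fell among them. The C57BL/6J mean was 20.9 ± 14.9 CPM (SD, n = 6), and the fitted difference from the other strains was 2.17 ± 0.80 (log2, SE), with an adjusted p of 0.193, where 0.529% of genes passed. In WSB/EiJ, 4 of the 6 libraries had no count of Slco2a1. The adjusted p over strains was 0.80 for Slco2a1 and 0.983 for Slco3a1, whose strain means ran from 9.67 CPM in A/J to 16.9 CPM in C57BL/6J.

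**Figure D2:**
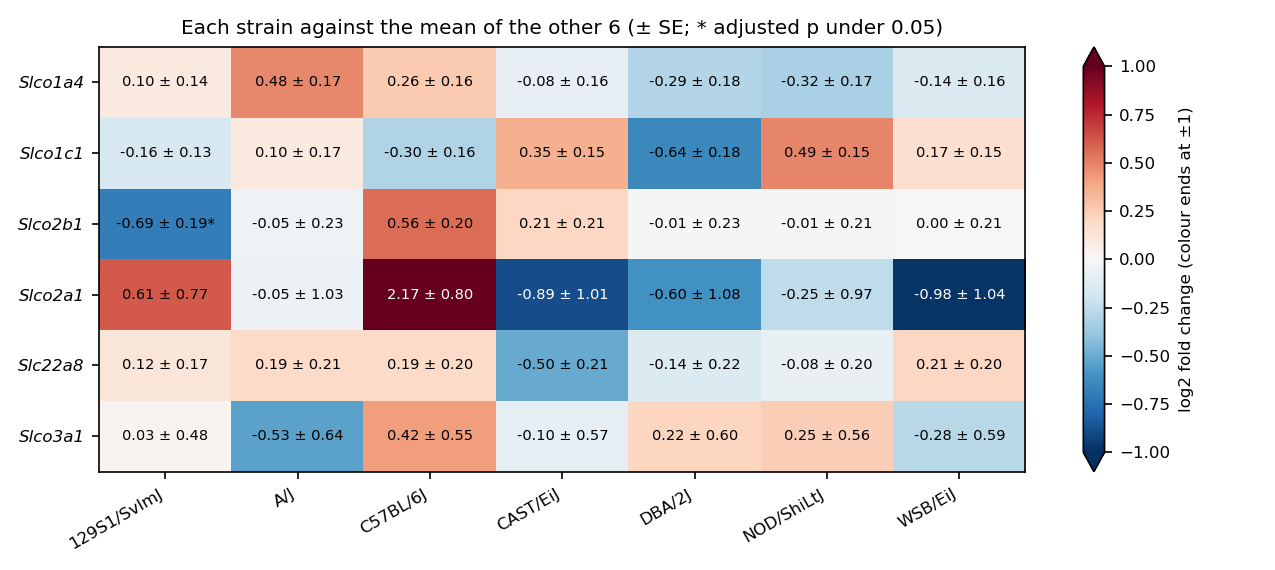
Fitted log2 difference of each transporter (rows) in each strain (columns) from the mean of the other 6 strains, with its SE; red is higher, blue is lower, and the colour scale ends at 1 in either direction. The starred cell, Slco2b1 in 129S1/SvImJ (-0.69 ± 0.19), is the single member and strain with an adjusted p under 0.05; the darkest red cell is Slco2a1 in C57BL/6J (2.17 ± 0.80), which did not pass.

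Of the 42 combinations of a member and a strain in that comparison, 1 passed the edgeR test. In DBA/2J, NOD/ShiLtJ and WSB/EiJ, where 0.192%, 0.185% and 2.41% of genes passed, no member was called by edgeR or by DESeq2, and 1, 1 and 0 members had an unadjusted p under 0.05, as did 7.66%, 9.52% and 13.2% of all genes tested. In A/J, C57BL/6J and CAST/EiJ, no member was called by either tool, and 1, 2 and 2 members had an unadjusted p under 0.05, as did 10.1%, 13.2% and 10.5% of all genes tested.

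The order of the strains differed from member to member. Slco1a4 ran from A/J through C57BL/6J, 129S1/SvImJ, CAST/EiJ, WSB/EiJ and DBA/2J to NOD/ShiLtJ, so that NOD/ShiLtJ was first for Slco1c1 and last for Slco1a4. For Slco2b1 the order was C57BL/6J, CAST/EiJ, WSB/EiJ, DBA/2J, NOD/ShiLtJ, A/J and 129S1/SvImJ. Neighbours in these orders did not differ beyond their spread in any of the 36 pairs tested, by two-sided exact permutation tests of mean log2(CPM + 1) adjusted over the 36 pairs. The strains were ranked by these same values, so neighbours hold the smallest gaps. This outcome was therefore likely from the start and does not show that strains further apart are alike. The smallest p was 0.0709, for Slco2b1 in A/J against 129S1/SvImJ, and its adjusted p was 0.987. On the log scale the order was reversed in 6 of the pairs.

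The ratio of Slco1c1 to Slco1a4 within a library separated NOD/ShiLtJ from most strains. It was chosen after its values were seen and is given as a description. In NOD/ShiLtJ the ratio of the CPM values ran from 0.995 to 1.204 with a median of 1.15. In the other strains the ranges were 0.77 to 0.95 in CAST/EiJ, 0.52 to 1.17 in WSB/EiJ, 0.39 to 0.84 in 129S1/SvImJ, 0.40 to 0.79 in DBA/2J, 0.48 to 0.66 in A/J and 0.39 to 0.66 in C57BL/6J. Every NOD/ShiLtJ library lay above every library of CAST/EiJ, 129S1/SvImJ, DBA/2J, A/J and C57BL/6J, and WSB/EiJ overlapped it. As CPM, Slco1c1 exceeded Slco1a4 in 7 of the 43 libraries, of which 5 were NOD/ShiLtJ and 2 were WSB/EiJ. The exons of Slco1c1 (5186 bases) are shorter than those of Slco1a4 (6414 bases). Per kilobase of exon the 2 genes are equal at a lower ratio, so this count holds for CPM alone. Within NOD/ShiLtJ the mean ratio was 1.07 in the cortex and 1.17 in the hippocampus (n = 3 each), and within C57BL/6J it was 0.46 and 0.58. The ratio does not depend on the scaling between libraries. The sum of both genes ran from 1131 to 3517 CPM over all libraries, with strain means from 1700 CPM in DBA/2J to 2667 CPM in A/J, and NOD/ShiLtJ stood at 2263 ± 303 CPM (SD, n = 6) beside 2261 ± 584 CPM in C57BL/6J (n = 6). These 2 strains had near-equal mean sums and different balances. The windows shared with Slco1a1 and Slco1a5 were 16 of 6402 for Slco1a4, and Slco1c1 had none. Slco1a1 averaged 0.225 CPM and Slco1a5 0.837 CPM. The mapping of reads from other strains to the C57BL/6J-based mm10 genome could change either level. The part of the shared windows and of the mapping in the ratio was not tested.

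**Figure D3:**
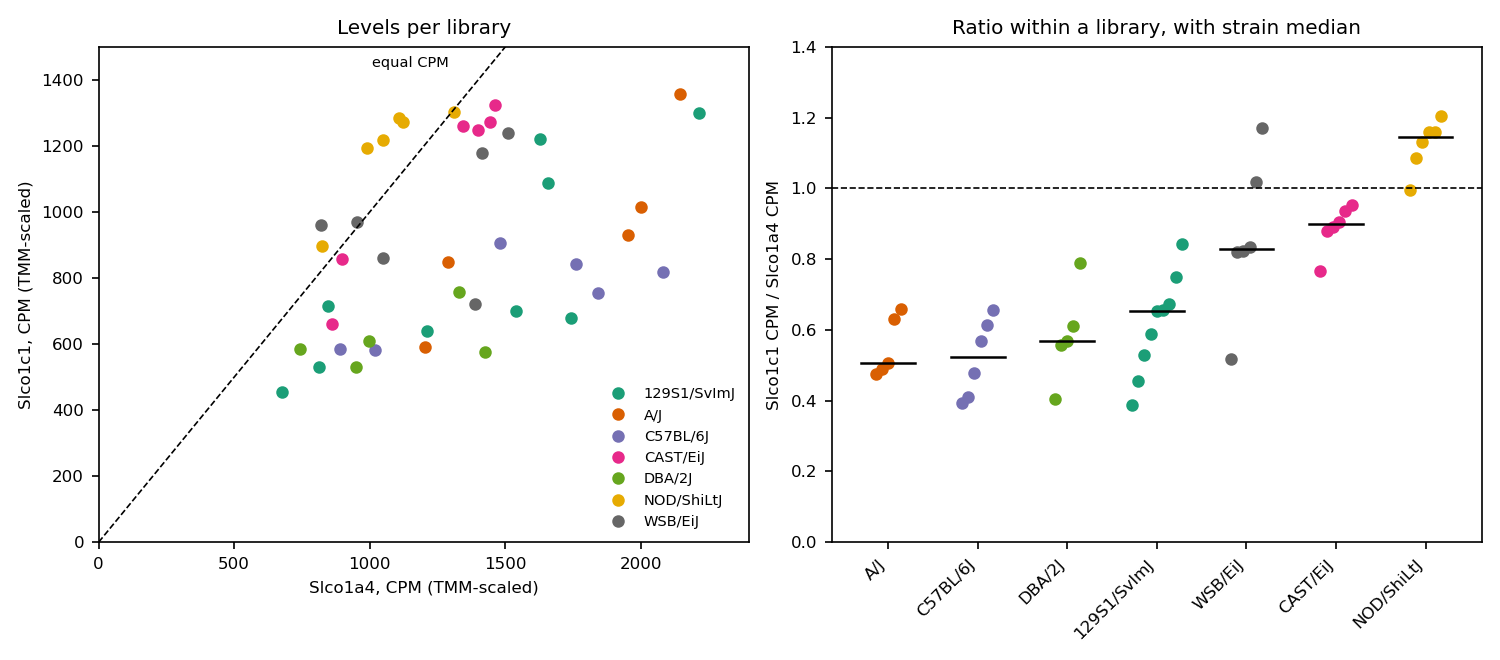
Left, Slco1c1 against Slco1a4 in each library (CPM, linear axes), coloured by strain, with a dashed line of equal CPM; right, the ratio of the 2 values in each library by strain, ordered by the median (black bar). The 6 NOD/ShiLtJ libraries lie at ratios of 0.995 to 1.204, above all libraries of A/J, C57BL/6J, DBA/2J, 129S1/SvImJ and CAST/EiJ.

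The study also set the wild-derived strains against the long-inbred ones. Slco1c1 averaged 1046 ± 235 CPM (SD, n = 12) in CAST/EiJ and WSB/EiJ and 864 ± 284 CPM (n = 31) in the other strains, a fitted difference of 0.28 ± 0.14 (log2, SE). Its adjusted p was 0.713, where 218 of 29120 genes passed (0.749%). Slco2a1 averaged 3.28 ± 4.15 CPM in wild-derived and 8.94 ± 9.88 CPM in long-inbred libraries (SD, n = 12 and 31), with 4 of 12 and 5 of 31 libraries at 0, and a fitted difference of -1.44 ± 0.80 (adjusted p = 0.754). The differences of Slco1a4, Slco2b1, Slc22a8 and Slco3a1 lay between -0.26 and 0.14. No member was called by edgeR or DESeq2, and 1 of 6, Slco1c1, had an unadjusted p under 0.05, as did 7.01% of all genes. Reads of wild-derived strains differ from mm10 more often than those of the others, and what this takes from each gene's count was not tested.

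Between regions, the thyroid hormone carrier and the organic anion exchanger stood somewhat higher in the hippocampus, within the spread. Slc22a8 ran from 153 to 639 CPM with a median of 331 CPM in the hippocampus, and from 136 to 524 CPM with a median of 282 CPM in the cortex. Its fitted difference was 0.33 ± 0.14 (log2, SE, adjusted p = 0.669). Slco1c1 had a median of 988 CPM in the hippocampus and 757 CPM in the cortex, with a difference of 0.22 ± 0.13 (adjusted p = 0.669). Slco2a1 had a median of 3.08 CPM in the hippocampus, where 6 of 22 libraries were at 0, and of 6.64 CPM in the cortex, where 3 of 21 were at 0, with a fitted difference of -1.03 ± 0.66 (adjusted p = 0.669). The remaining differences lay between -0.01 and 0.10. No member passed by edgeR or DESeq2, and 1 of 6, Slc22a8, had an unadjusted p under 0.05, as did 5.6% of all genes. Over all genes, 22 of 29120 passed (0.0755%).

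Cortex and hippocampus libraries could be matched by strain, sex, title word and title number in 19 pairs. A title without a number was matched to another without one. The pairs are compared as a description since shared mice are not given. The hippocampus was higher in 13 pairs for Slco1c1, 12 for Slc22a8, 10 for Slco1a4, 10 for Slco3a1, 8 for Slco2b1 and 4 for Slco2a1, where the cortex was higher in 13 and the other 2 were tied at 0. The astrocyte marker sum had a median of 2861 CPM in the hippocampus and 4217 CPM in the cortex, and the endothelial sum 17894 and 18392 CPM. Of the 10 astrocyte markers, 1 had a higher mean in the hippocampus, and 1 was called higher there. All 10 choroid plexus markers had a higher mean in the hippocampus, with none called. Their sum had a median of 15.4 CPM there (highest 506) and of 5.29 CPM in the cortex (highest 58.2). The part of such cells in the regional values was not tested. Whether the strain differences themselves differed between the regions was tested as an interaction: no gene of 29120 passed by edgeR (0%), 613 had an unadjusted p under 0.05 and DESeq2 called 23. Every member had an adjusted p of 1, and none had an unadjusted p under 0.05.

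Between the sexes no member passed the edgeR test, where 830 of 29120 genes did (2.85%). Slco1a4 ran from 676 to 2215 CPM with a median of 1435 CPM in female libraries and from 742 to 2145 CPM with a median of 1108 CPM in male libraries, and the ranges overlapped almost fully. Its difference was 0.25 ± 0.12 (log2, SE, female over male, adjusted p = 0.377), the single member with an unadjusted p under 0.05, as had 13.1% of all genes, and DESeq2 called none. The differences of Slco1c1, Slco2b1 and Slc22a8 lay between -0.02 and 0.05. Those of the low members were 0.34 ± 0.39 for Slco3a1 and -0.17 ± 0.69 for Slco2a1. The ribosomal RNA-like share does not overlap between the sexes, so that sex and this share cannot be told apart here. Among the libraries titled high alone, no member passed either.

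The title word was tested within the male libraries, where 5 of the 6 members had a higher fitted level in libraries titled high and 1 of them passed. Slco1a4 in the 14 male libraries titled high ran from 821 to 2145 CPM with a median of 1431 CPM. In the 13 titled low it ran from 742 to 1413 CPM with a median of 949.6 CPM. The ranges overlapped, and 13 of the 14 libraries titled high stood above the median of those titled low. Slco1a4 was 1.46-fold higher, a log2 difference of 0.55 ± 0.12 (SE) with an adjusted p of 0.00637 by edgeR's test, where 293 of 27529 genes passed (1.06%).

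The other abundant members had differences of like size that did not pass. Slco1c1 averaged 1044 ± 249 CPM in male libraries titled high (SD, n = 14) and 786 ± 232 CPM in those titled low (n = 13), a difference of 0.42 ± 0.13 (log2, SE, adjusted p = 0.120). Slc22a8 averaged 365 ± 94.2 and 272 ± 63.3 CPM, a difference of 0.44 ± 0.14 (adjusted p = 0.153). Slco2b1 averaged 251 ± 64.2 and 181 ± 61.8 CPM, a difference of 0.48 ± 0.16 (adjusted p = 0.180). Of the low members, Slco2a1 had a difference of 1.004 ± 0.76 (adjusted p = 0.651) and Slco3a1 of -0.41 ± 0.47 (adjusted p = 0.707). With DESeq2, 4 members passed, where 2.36% of genes did. With strain and region added to the edgeR fit, where 2.25% of genes passed, Slco1c1 (0.43, adjusted p = 0.00447), Slco2b1 (0.55, adjusted p = 0.0132) and Slc22a8 (0.40, adjusted p = 0.0441) passed beside Slco1a4 (0.51, adjusted p = 0.00136).

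Male libraries of the same strain and region formed 13 pairs titled high and low. The library titled high was above the other in 12 of the 13 pairs for Slco1a4 and Slc22a8, in 11 for Slco1c1, Slco2b1 and Slco2a1, and in 5 for Slco3a1. The median ratio of high to low was 1.62 for Slco1a4, 1.46 for Slco1c1, 1.65 for Slco2b1, 1.38 for Slc22a8 and 0.75 for Slco3a1. The pair that went the other way for Slco1a4 was the WSB/EiJ hippocampus, with 821 CPM in the library titled high, the shallowest of all at 1626534 counts, and 1413 CPM in the one titled low. The ratio of Slco1c1 to Slco1a4 moved less, with a median high to low quotient of 0.95 over the 13 pairs.

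**Figure D4:**
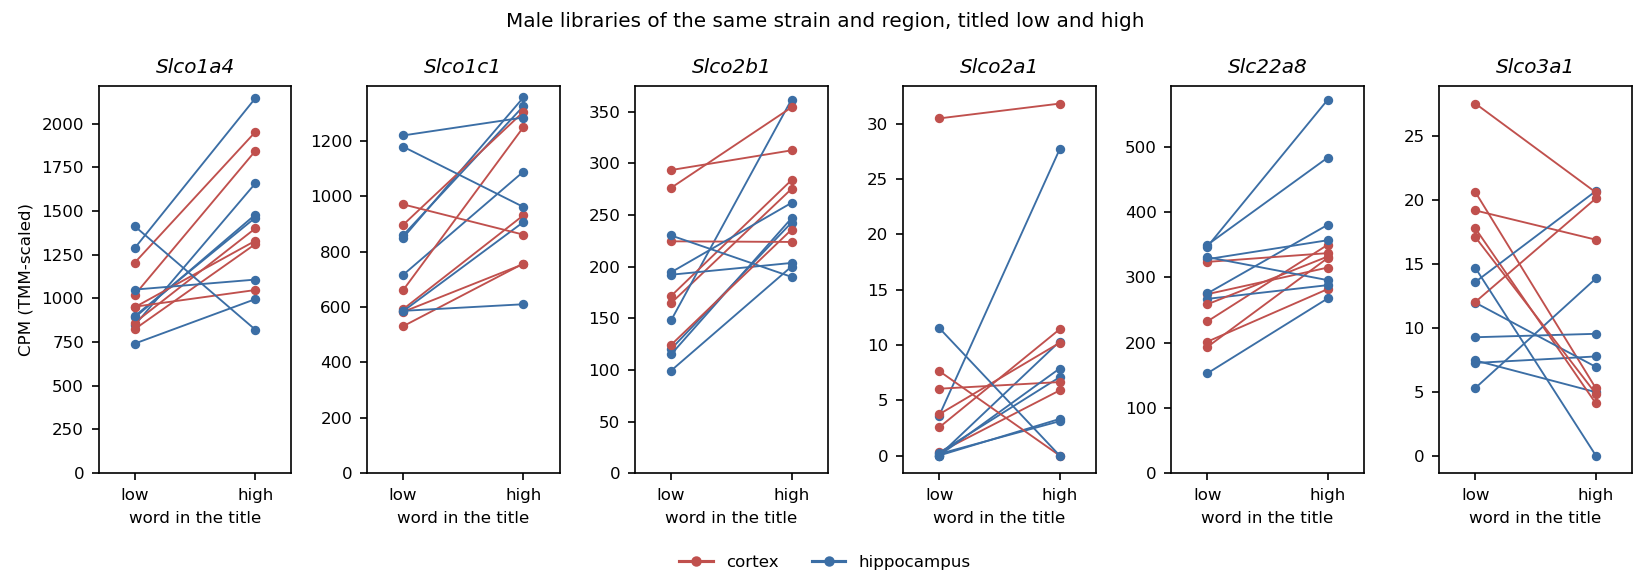
Levels (CPM, linear axes, 1 panel per gene) in male libraries of the same strain and region, with a line joining the library titled low to the one titled high, red for cortex and blue for hippocampus. Lines rise in 12 of 13 pairs for Slco1a4 and Slc22a8 and in 11 of 13 for Slco1c1, Slco2b1 and Slco2a1, and in 5 of 13 for Slco3a1.

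Cell type markers moved with the title word too. Of the 20 endothelial markers, which include the transporters Slc2a1 and Abcb1a, 18 had a higher mean in male libraries titled high, 5 were called higher and 1 lower, and their sum ran from 15785 to 22066 CPM (median 20838) against 14531 to 18939 CPM (median 16498). All 10 astrocyte markers had a lower mean in libraries titled high, with 3 called lower, and their sum ran from 1480 to 7274 CPM (median 3229) against 3163 to 19671 CPM (median 5188). Of the 10 pericyte markers, 7 had a higher mean and 1 was called lower, with a sum of 2141 to 8322 CPM (median 3677) against 2582 to 9552 CPM (median 6590). All 8 neuronal markers had a lower mean, with 2 called lower, and their sum had a median of 234 CPM against 488 CPM. No marker on these lists was at 0 in every male library. When libraries were scaled to equal endothelial markers, the difference of Slco1a4 was 0.10 with an adjusted p of 0.691, and with the astrocyte, pericyte and neuron levels as covariates it was 0.26 with an adjusted p of 1. Without the C57BL/6J libraries it was 0.48 with an adjusted p of 0.0807, and within the cortex and the hippocampus alone it was 0.63 (adjusted p = 0.0909) and 0.45 (adjusted p = 0.715).

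**Figure D5:**
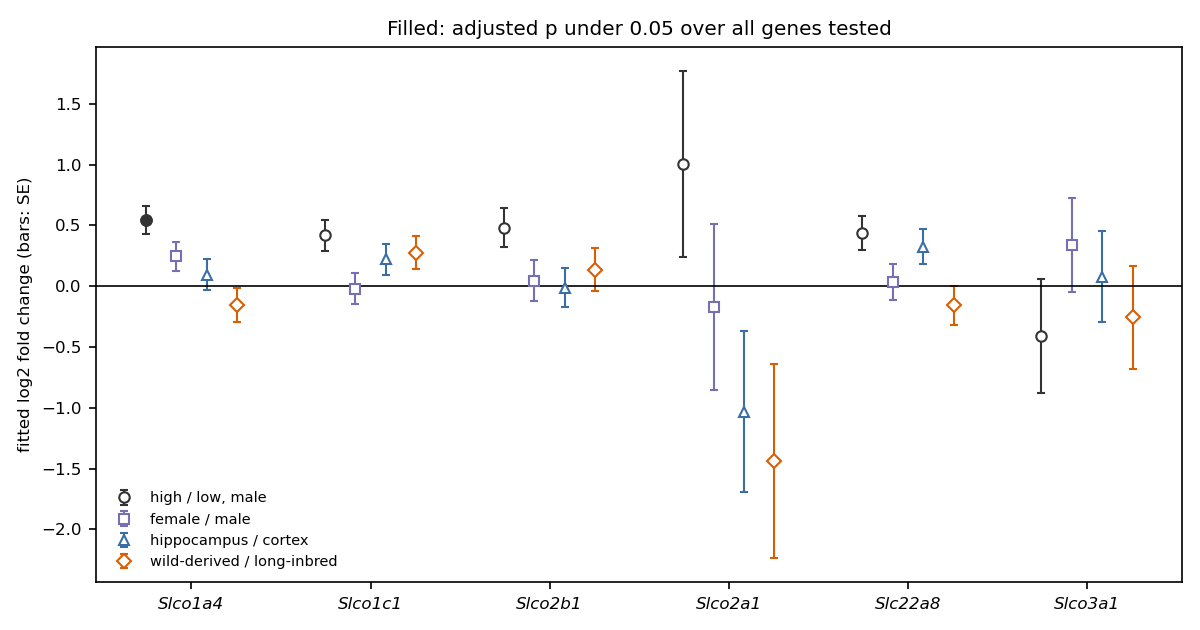
Fitted log2 fold change of each transporter with its SE in 4 comparisons: titled high over low in male libraries (circles), female over male (squares), hippocampus over cortex (triangles) and wild-derived over long-inbred strains (diamonds). The filled symbol, Slco1a4 for the title word (0.55 ± 0.12), is the single one with an adjusted p under 0.05; the error bars of Slco2a1 and Slco3a1 are the widest.

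Other genes of these pathways gave a background for the members. Of the 18 listed genes for thyroid hormone uptake, metabolism and receptors, 17 were tested. Over strains 2 of the 17 passed: Slc7a5, the light chain of a large amino acid carrier that also moves thyroid hormone (adjusted p = 0.000292), and Ttr, the thyroxine-binding protein made by the choroid plexus (adjusted p = 0.00233). Slc7a5 was higher in WSB/EiJ by 0.82 ± 0.15 (log2, SE, adjusted p = 0.000389) and in wild-derived strains by 0.60 ± 0.14 (adjusted p = 0.0116). Ttr was higher in NOD/ShiLtJ by 3.34 ± 0.75 (adjusted p = 0.0214) and in female libraries by 2.52 ± 0.72 (adjusted p = 0.0317). Its level ran from 0 to 388 CPM with a median of 0.613 CPM, and the choroid plexus list, which includes Ttr, ran in sum from 0 to 506 CPM; the part of such cells in these values was not tested. The list medians in those comparisons were 0.07 in WSB/EiJ against -0.72 over all genes, 0.09 for origin against -0.38, -0.15 in NOD/ShiLtJ against -0.13 and -0.07 for sex against -0.12. No gene of this list passed in the other strains or between regions.

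The partners of the prostaglandin transporter were mostly low. Of the 17 genes for prostaglandin synthesis, breakdown and receptors, all were tested, 11 had a mean of at least 1 CPM and 3 of at least 10 CPM. Ptgs1, a cyclooxygenase, averaged 5.06 CPM (median 0.804), and Hpgd, which breaks prostaglandins down after their uptake, 0.106 CPM. Ptgds, a prostaglandin D synthase, passed over strains (adjusted p = 0.0113) and was higher in 129S1/SvImJ by 1.403 ± 0.36 (log2, SE, adjusted p = 0.0285), where the median of the list was 0.07 against 0.10 over all genes. No gene of the list passed in the remaining comparisons, of which the title comparison tested 16.

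All 9 listed efflux pumps were tested, and 6 averaged at least 10 CPM. The list joins the drug efflux pump genes Abcb1a and Abcb1b, which are not counted as organic anion pumps here, to Abcg2 and Abcc genes. Abcb1b passed over strains (adjusted p = 0.00562) and was higher in CAST/EiJ by 2.66 ± 0.65 (log2, SE, adjusted p = 0.0102), where the median of the list was 0.39 against -0.12 over all genes. It averaged 7.10 CPM and is a close copy of Abcb1a, with which reads may be split. No pump passed for origin, region, sex or title word.

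The members were the abundant genes of their families. Of the 10 other Slco genes in the table, 7 passed the filter and 1, Slco5a1, averaged at least 1 CPM (2.33 CPM). Slco1a5 averaged 0.837 CPM and Slco1a1 0.225 CPM, beside 1312 CPM for Slco1a4 in the same gene cluster. Of the 25 other Slc22a genes, 19 passed the filter, 5 averaged at least 1 CPM and 2 at least 10 CPM. Slc22a6, the closest relative of Slc22a8, averaged 0.93 CPM. None of the 7 Slco and 19 Slc22a genes that were tested passed in any comparison, and the others were not tested.

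Across the 43 libraries, the members followed different genes. Likeness was measured as Pearson's r of log2(CPM + 1), which shares depth, scaling and RNA composition between genes, over the 8679 tested genes with a mean of at least 10 CPM. The gene most like Slco1a4 was Abcb1a, the main drug efflux pump of mouse brain capillaries (r = 0.77), followed by Tm4sf1 and Fxyd5 (both r = 0.71). For Slco1c1 the nearest were Robo4, an endothelial guidance receptor (r = 0.78), Slc2a1, the glucose carrier of the barrier (r = 0.74), and St8sia4 (r = 0.74). Slco2b1 was most like Jam2, a junctional adhesion molecule (r = 0.75), Wfdc1 and Lgals9 (both r = 0.70), and Slc22a8 most like Ndnf (r = 0.74), Hmcn1 (r = 0.73) and Ly6e (r = 0.71). The low members had lower values: Slco3a1 with Gm9794 and Dgcr8 (both r = 0.69) and Rprd1b (r = 0.67), and Slco2a1 with Acot2 (r = 0.62), Zfp950 (r = 0.56) and Rnpc3 (r = 0.54). Between members, the highest values were 0.66 for Slco1a4 with Slc22a8, 0.54 for Slco1c1 with Slc22a8 and 0.45 for Slco1a4 with Slco1c1. Slco3a1 had values between 0.06 and 0.23 with each of the others.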

How the data were processed

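EC were sorted from cortex or hippocampus, libraries were made with the SMARTer Stranded Total RNA Pico kit and sequenced as single-end reads of 125 bp. Per the labels and the study's methods, alignment by the authors was to mm10, using HISAT2 2.1.0 and SAMtools 1.9, and reads were counted per gene with featureCounts of Subread 1.4.4. The deposited values are raw counts (54532 genes, 43 libraries, 1626534 to 49372356 counts each). The strand setting is not given in the sources used here. The study's methods name a dated version of the mm10 annotation; positions and exon lengths here come instead from GENCODE M21, which 54495 gene IDs matched. No 2 libraries held identical counts.

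The filter kept any gene reaching 0.5 CPM in 1 or more libraries (29120; 27529 in male libraries), so all 6 members were tested. Libraries were scaled by TMM and tested with edgeR 4.0.16 (R 4.3.3) quasi-likelihood tests (bias-adjusted deviances, trended dispersions), two-sided, without covariates as in the study's methods, with Benjamini-Hochberg adjustment over all genes tested and a threshold of 0.05. DESeq2 1.42.0, other scalings, filters, covariates and subsets of libraries were alternatives. In fits with covariates, genes with a fitted count above 5 times their highest observed count were left out. In counts simulated from these libraries the strain tests made more false calls than the nominal rate. Neighbouring strains were compared by exact permutation tests (scipy 1.17.1). All members were named, list genes where they passed or explain the pathway, and the 3 genes most like each member. The members and lists were chosen with earlier results of these data known, and the alternatives restricted to libraries titled high, leaving out 129S1/SvImJ libraries, or leaving out strains from the title comparison, were chosen after seeing the data. Results of 1 gene on the pathway lists are not reported here.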

Additional observations from a re-analysis of the deposited data

Results flagged for a closer look

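In each strain, the highest and lowest library of each member was compared with the rest by the ratio of its gap to the strain's range, on log2(CPM + 1). Of 42 combinations of member and strain, 5 had a library past the critical value; chance gives about 1 in 20. Slco1c1 in NOD/ShiLtJ was 896 CPM in the male cortex library titled low, where the other 5 held 1193 to 1304 CPM. Slco2b1 in C57BL/6J was 148 CPM in the male hippocampus library titled low, where the others held 294 to 410 CPM. Slco2a1 in NOD/ShiLtJ was 0 CPM in the male hippocampus library titled low, beside 4.44 to 7.86 CPM. Slc22a8 in WSB/EiJ was 639 CPM in the female hippocampus library titled high, beside 236 to 337 CPM. Slco3a1 in A/J was 20.6 CPM in the male cortex library titled low, beside 5.27 to 7.75 CPM. 4 of the 5 libraries were male and titled low, as were 13 of all 43 libraries. Among these 4, the value of Slco3a1 in A/J was high and the others were low.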

How the results depend on the processing

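Across the alternatives no member passed for origin, region, sex or the interaction of strain and region. No neighbouring pair of strains differed either, which says little, since neighbours hold the smallest gaps in each order. The number of members called over strains, 1 in the main fit, was 2 with DESeq2, with counts drawn down to the lowest total and with sex, region and title word as covariates (Slco2b1 added in each), 3 with scaling to endothelial markers (Slco1a4 and Slc22a8 added) and with edgeR's default quasi-likelihood setting (Slco1a4 and Slco2b1 added), and 0 in cortex, in hippocampus or in libraries titled high only. Over strains DESeq2 called 1336 genes, where the main fit called 781. The share of all genes called is not given here for most other alternatives. A larger number of members called is therefore not read as a result about the members. Slco1c1 was called in 30 of 33 alternatives. The number called in single strains, 1 in the main fit, was 4 with endothelial scaling (Slc22a8 in CAST/EiJ and WSB/EiJ and Slco1c1 in WSB/EiJ added), 6 with edgeR's default (Slco1c1 in CAST/EiJ, DBA/2J and NOD/ShiLtJ and Slco1a4 in A/J and NOD/ShiLtJ added), 3 with label covariates (Slco1c1 in DBA/2J and NOD/ShiLtJ added), 1 with marker covariates (Slc22a8 in CAST/EiJ in place of Slco2b1), 2 among libraries titled high (Slco2a1 in WSB/EiJ added), and 0 with the ribosomal RNA-like share as a covariate and in cortex, hippocampus or male libraries only; leaving out 1 library of A/J, DBA/2J or 129S1/SvImJ gave 0 to 1 (libraries of the other strains were not left out singly), with 0 for 6 of the 9 129S1/SvImJ and 3 of the 5 A/J libraries. Slco2b1 in 129S1/SvImJ was called in 19 of 33 alternatives, with differences from -0.81 to -0.56. For the title word, 1 in the main fit, the number was 4 with DESeq2, edgeR's default and strain and region as covariates, 2 with counts drawn down and without WSB/EiJ, and 0 with endothelial scaling, marker covariates, in cortex or hippocampus only and without C57BL/6J; Slco1a4 was called in 14 of 19. The cause of these changes was not tested.

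Some differences that were not called changed sign, several of them not small. For origin, Slco1a4 was 0.017 and Slc22a8 0.074 with endothelial scaling, Slc22a8 0.11 without CAST/EiJ, and Slco2b1 -0.056 in hippocampus only and -0.039 without 129S1/SvImJ. For region, Slco1a4 was -0.068 in male libraries and -0.00050 without 129S1/SvImJ; Slco3a1 was -0.045 with endothelial scaling, -0.17 with counts drawn down, -0.67 in male libraries, -0.17 without 129S1/SvImJ and -0.022 without WSB/EiJ; Slco2b1 was 0.080 in libraries titled high, 0.0026 without A/J, 0.046 without CAST/EiJ and 0.028 without WSB/EiJ. For sex, Slco1c1 was 0.76 with the ribosomal RNA-like share as a covariate, 0.065 in hippocampus only and 0.17 without 129S1/SvImJ, Slco3a1 -0.34 with that share and -0.63 in cortex only, and Slco2a1 0.16 without C57BL/6J. Slco2b1 was -0.072 with DESeq2 and with its size factors, -0.12 with endothelial scaling, -0.092 with marker covariates, -0.059 drawn down, -0.026 with label covariates, -0.26 in cortex only, -0.13 in libraries titled high, -0.015 without C57BL/6J, -0.078 without CAST/EiJ, -0.0060 without DBA/2J and -0.0020 without NOD/ShiLtJ. Slc22a8 was -0.11 with DESeq2, its size factors and endothelial scaling, -0.012 without a filter, -0.069 with the ribosomal RNA-like share, -0.098 with marker covariates, -0.097 drawn down, -0.23 with label covariates, -0.24 in cortex only, -0.13 in libraries titled high, -0.0030 without A/J, -0.068 without C57BL/6J, -0.040 without DBA/2J and -0.045 without WSB/EiJ. For the title word with marker covariates, Slco3a1 was 0.62 and Slco2a1 -0.33. Counts of Slco2a1 and Slco3a1 were few, which limits what their tests could show.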
